A study of Drosophila melanogaster with 7 samples.

Results

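Cytochrome P450 (CYP) and UDP-glycosyltransferase (UGT) genes were followed through single-cell transcriptomes of the adult *Drosophila melanogaster* central brain. All genes were taken whose symbol in the deposited matrices is Cyp or Ugt followed by a family number, which gave 99 genes (82 *Cyp* and 17 *Ugt*) of 16764 listed. A further 18 UGT genes of the current annotation are listed in the matrices under other symbols and were not included. The study pooled central brains of male wild-type flies of the *Drosophila* genetic reference panel (DGRP), 4 to 9 days old, in 7 runs, with 5 to 9 of 10 lines per run and each line in 1 sleep or wakefulness condition, which other lines of the run could share. The conditions were spontaneous sleep (S), recovery sleep (RS), sleep of yoked controls (YC-S), gaboxadol-induced sleep (GBX-S), spontaneous wakefulness (W) and mechanical sleep deprivation (SD), with flies collected at Zeitgeber times ZT2, ZT8, ZT14 and ZT20. Run 5 held ZT20 flies alone and runs 6 and 7 held ZT8 flies alone, whereas run 1 held ZT8 and ZT20, runs 2 and 3 held ZT2 and ZT20, and run 4 held ZT2 and ZT14. Cells were not assigned to lines here, so that the run was the replicate and conditions within a run were not separated. The p-values between cell classes measure how the difference within a run varied over runs. Those between times draw their spread from runs that shared their times, runs 2 and 3 and runs 6 and 7. They hold no spread between runs with ZT20 flies alone.

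P450 enzymes are heme monooxygenases that oxidize lipids, hormones and foreign chemicals. Microsomal P450s receive their electrons from the reductase Cpr, and mitochondrial P450s receive them from ferredoxins. UGTs couple sugars to small molecules, often after a P450 has oxidized them, which makes the products soluble and exportable. In flies both families are best known from the fat body, the gut and insecticide resistance, and glia of the blood-brain barrier are known to express detoxification genes.

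After removal of low-quality cells and doublets, 143556 cells were clustered with the *Cyp* and *Ugt* genes kept out of the genes used for clustering. Glia made up 10033 cells (599 to 2464 per run, median of 3055 UMIs per cell) and neurons 125070 cells (8626 to 29233 per run, median of 5905 UMIs). A UMI is a tag of 1 captured transcript, and CPM below is the number of UMIs of a gene per 1000000 UMIs of a cell class in a run; because 3′ tags were counted, levels were not scaled to gene length. By markers, 3 glial types were named: astrocyte-like glia (ALG, 3219 cells), ensheathing glia (EG, 1780 cells) and perineurial glia (PG, 963 cells). The EG cluster also passed the marker threshold for 4 ALG markers, against 5 EG markers, and the PG cluster for 4 markers of subperineurial glia, against 7 PG markers. A further 2 glial clusters stayed unnamed, 1 led by *Obp44a* (933 cells) and 1 of cells with few UMIs (3138 cells, median of 766 UMIs, *ninaE* of photoreceptors among its leading genes). No cluster was named subperineurial or cortex glia. Clusters with glial and neuronal genes together (7982 cells) and hemocytes (113 cells) were left out of the comparisons. So was a glial cluster led by *CG18067* with muscle genes (358 cells), which passed 7 PG and 5 subperineurial markers. Its muscle markers summed to 49.7, 272 and 19222 CPM in the lowest, median and highest run, against 259 to 332 CPM in glia. A list of 10 fat body markers summed to 256 to 457 CPM in glia and 84.9 to 115 CPM in neurons, with 1 of them, *Fbp2*, at 0 in glia, and its part in the results was not tested. Total depth was 49949595 to 311443505 UMIs per run, and pairs of runs shared 35 to 355 barcodes, at most 1.14% of the smaller run.

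The *Cyp* and *Ugt* genes were together far more abundant in glia than in neurons. Their summed level in glia was 2301, 3811 and 4419.6 CPM in the lowest, median and highest run, and in neurons 90.5, 114 and 189 CPM. Glia averaged 3423 ± 895 CPM and neurons 129.6 ± 41.0 CPM (SD, n = 7 runs each), and the ranges did not overlap. *Cyp* genes summed to 2539 ± 676 CPM in glia and 116 ± 32.9 CPM in neurons, and *Ugt* genes to 884 ± 239 CPM in glia and 13.7 ± 8.63 CPM in neurons. Among the glial types the sum of all members was 4619 ± 1148 CPM in EG, 3061 ± 736 CPM in PG and 2683 ± 809 CPM in ALG. The sum for *Ugt* genes alone was 1605 ± 367 CPM in EG, against 505 ± 101 CPM in PG and 479 ± 177 CPM in ALG, and no run of EG fell into the range of either of the other types. The unnamed clusters had 3711 ± 1014 CPM (*Obp44a*) and 3245 ± 1139 CPM (few UMIs), while the 7 groups of neurons had means between 99.4 CPM in serotonergic neurons and 139.6 CPM in dopaminergic neurons. Runs 2 to 4 held the 3 lowest sums in glia and the 3 highest in neurons, 143 to 189 CPM against 90.5 to 114 CPM in the other runs. The deposited barcodes of runs 2 to 4 started at 2658, 2676 and 2914 UMIs, and those of the other runs at 500 UMIs. The cluster with few UMIs gave 14 to 83 glia per run in runs 2 to 4 and 359 to 1459 in the other runs. The part of this depth in the sums was not tested.

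**Figure D1:**
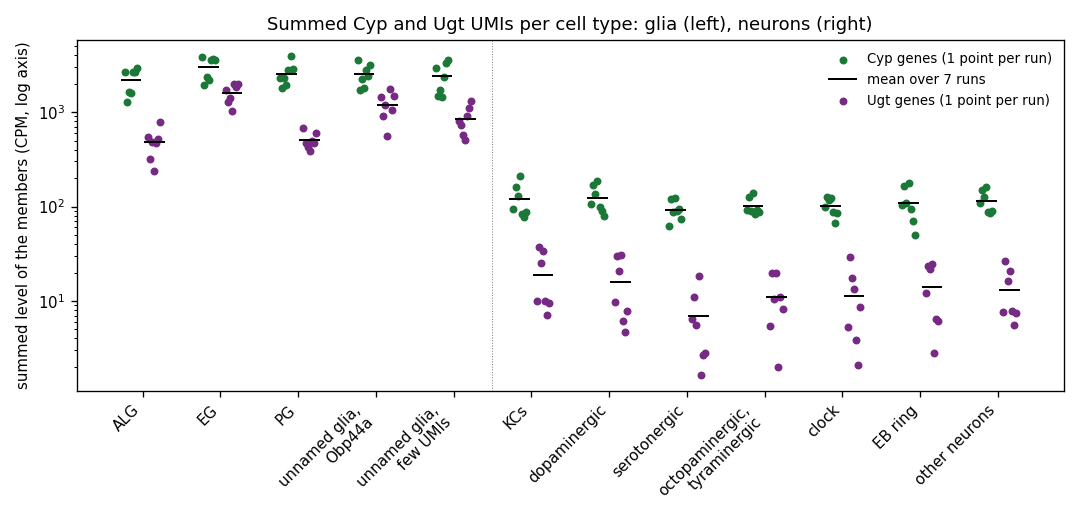
Summed level of the *Cyp* genes (green) and of the *Ugt* genes (purple) in each cell type, in CPM on a log axis, with 1 point per run and the mean over 7 runs as a line. All points of glial types lie above all points of the same gene family in neuron types, and the *Ugt* genes of EG average 1605 CPM.

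Few genes carried most of this signal. In glia the 2 leading members held 34.9% of all member UMIs on average over runs, the 5 leading members 62.6% and the 15 leading members 90.3%. At the other end, 56 of the 99 genes were under 1 CPM in glia, 22 had no UMI in glia, and 3 had no UMI in either class. Each gene was compared between glia and neurons by the quasi-likelihood test of edgeR on UMIs summed per run, with the run as a block and Benjamini-Hochberg adjustment over 9631 genes. Of the 99 members, 53 passed the filter on low counts; the other 46 had at most 10 UMIs in glia. Of those 53, 42 were higher in glia at an adjusted p under 0.05, against 35.2% of all genes tested, 3 were lower in glia, against 37.0% of all genes tested, and 8 were not called. The median log2 difference was 5.54 over the 53 members and -0.08 over all genes tested. With no filter on low counts these medians were 2.12 for members and -0.36 for all genes, and with DESeq2 4.33 and 0.44. The ranges over runs did not overlap, with glia higher, for 36 members, against 16.5% of all genes tested. By family, all 10 tested *Ugt* genes were called higher in glia (of 17 listed), 21 of 25 tested genes of the CYP3 clan (of 37), 5 of 10 of the CYP4 clan (of 32), 5 of 7 of the mitochondrial clan (of 9) and 1 of 1 of the CYP2 clan (of 4). Because a gene that is low in neurons can pass the filter through its glial level alone, these counts describe the tested genes and not the family as a whole.

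The most abundant P450 of glia was *Cyp28d1* (chromosome 2L, 5210460 to 5212445), a CYP3 clan gene known from nicotine resistance. Its level was 289.6, 503 and 1149 CPM in the lowest, median and highest run of glia and 4.07, 7.33 and 28.8 CPM in neurons. The log2 difference was 6.28 ± 0.62 (SE, adjusted p = 2.51e-05, edgeR), and each run had glia higher. Runs 6 and 7 had 1149 and 1011 CPM in glia, whereas the other 5 runs lay between 289.6 and 542 CPM. Its close neighbor *Cyp28d2*, which starts upstream on the same strand (5207267 to 5209345), was rare, with 0.63, 1.73 and 2.51 CPM in glia and 1.88, 2.52 and 2.89 CPM in neurons and no call (log2 difference -0.22 ± 0.20 SE, adjusted p = 0.34, edgeR). *Cyp28a5*, elsewhere on 2L (13977302 to 13979569), had 278, 487 and 542 CPM in glia and 3.57, 5.50 and 20.2 CPM in neurons (log2 difference 6.26 ± 0.62 SE, adjusted p = 2.70e-05, edgeR). *Cyp28c1* on the X chromosome was less abundant, with 22.2, 46.8 and 57.9 CPM in glia and 0.47, 0.66 and 1.76 CPM in neurons (log2 difference 5.79 ± 0.56 SE).

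Other genes of the CYP3 clan, the group with most known insecticide-metabolizing P450s, followed. *Cyp9f2* had 161.5, 273 and 312.8 CPM in glia and 2.91, 3.85 and 11.5 CPM in neurons, and *Cyp6a13* had 87.5, 142 and 196 CPM in glia and 1.45, 2.17 and 4.00 CPM in neurons. *Cyp6w1* varied most between runs of glia among the 15 leading members (SD of 79.9 CPM on a mean of 136 CPM), with 44.3, 133 and 299 CPM, against 1.00, 2.70 and 4.53 CPM in neurons. None of these ranges overlapped between the classes. *Cyp6a20*, known for its effect on male aggression, had 76.2, 101 and 241 CPM in glia and 0.34, 0.55 and 2.30 CPM in neurons, the largest difference among P450s at 10 CPM or more in glia (log2 difference 7.56 ± 0.49 SE, adjusted p = 2.56e-06, edgeR). *Cyp6a17*, known from temperature preference behavior, had 73.7, 115.5 and 174 CPM in glia and 0.73, 1.10 and 4.08 CPM in neurons (log2 difference 6.66 ± 0.57 SE). At lower levels, *Cyp6a9* averaged 22.4 ± 3.69 CPM in glia and 0.295 ± 0.245 CPM in neurons, and *Cyp6t1* 22.4 ± 6.94 CPM in glia and 0.27 ± 0.18 CPM in neurons (SD, n = 7 each), with log2 differences of 6.65 and 6.59. *Cyp6a17* and *Cyp6a23* are close relatives that lie side by side, so that the split of reads between them is uncertain, as it is for the copies *Cyp12d1-p* and *Cyp12d1-d*, which had almost no UMIs.

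In the CYP4 clan, best known for fatty acid and hydrocarbon metabolism, 1 gene was abundant. *Cyp4g15*, a P450 known from the nervous system, had 171, 256 and 392 CPM in glia and 2.79, 5.36 and 13.9 CPM in neurons (log2 difference 5.92 ± 0.57 SE, adjusted p = 2.29e-05, edgeR). Its relative *Cyp4g1*, the oenocyte enzyme that makes cuticular hydrocarbons, had a median of 0 CPM in glia and 0.13 CPM in neurons and was not called (log2 difference 0.83 ± 0.47 SE, adjusted p = 0.14, edgeR). Run 3 stood apart for *Cyp4g1* in both classes, with 15.0 CPM in glia and 7.82 CPM in neurons, while no other run exceeded 0.0966 CPM in glia or 0.172 CPM in neurons. Run 3 was the sole run with yoked controls, in 2 of its lines, and its part in this level was not tested. *Cyp4g1* overlaps *CG32816* on the same strand, so that their reads cannot be fully told apart.

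Mitochondrial P450s of the *Cyp12* family reached intermediate levels. *Cyp12b2* had 70.2, 99.0 and 160.2 CPM in glia and 15.4, 18.1 and 22.2 CPM in neurons (log2 difference 2.89 ± 0.17 SE, adjusted p = 1.53e-06, edgeR). Its level in neurons was the highest of all members in that class, and it stood at 17.8 CPM in Kenyon cells (KCs), 23.0 CPM in dopaminergic, 22.7 CPM in serotonergic and 19.3 CPM in clock neurons. *Cyp12a4*, known from resistance to the insecticide lufenuron, had 36.1, 52.6 and 85.4 CPM in glia and 1.26, 2.24 and 4.76 CPM in neurons (log2 difference 4.98 ± 0.47 SE). *Cyp12e1* had 31.8, 46.8 and 72.4 CPM in glia and 0.71, 1.16 and 2.24 CPM in neurons (log2 difference 5.46 ± 0.40 SE). *Cyp12c1* was rare in both, 6.49 ± 4.05 CPM in glia and 0.075 ± 0.076 CPM in neurons (log2 difference 6.64 ± 0.50 SE), and none of the ranges of these 4 genes overlapped between glia and neurons.

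Among UGTs, *Ugt35b* (chromosome 3R, 11168503 to 11170246) led with 253, 599 and 859 CPM in glia and 4.54, 5.66 and 21.9 CPM in neurons (log2 difference 6.55 ± 0.63 SE, adjusted p = 2.17e-05, edgeR). *Ugt86Dd*, a gene known from variation in nicotine resistance, had 57.6, 131 and 231 CPM in glia and 0.281, 1.36 and 2.80 CPM in neurons (log2 difference 7.06 ± 0.47 SE, adjusted p = 3.01e-06, edgeR). The largest difference of all tested members was that of *Ugt86Da*, with 20.2, 33.0 and 63.7 CPM in glia and 0.082, 0.15 and 0.48 CPM in neurons (log2 difference 7.58 ± 0.34 SE, adjusted p = 5.68e-07, edgeR). For each of these genes the lowest run of glia lay above the highest run of neurons. Among less abundant UGTs of the same neighborhood, *Ugt86De* averaged 17.02 ± 7.19 CPM in glia and 0.19 ± 0.17 CPM in neurons, and *Ugt86Dg* 2.85 ± 2.23 CPM in glia and 0.022 ± 0.016 CPM in neurons, both higher in glia in 7 of 7 runs. *Ugt58Fa* on 2R averaged 29.9 ± 11.7 CPM in glia and 0.37 ± 0.26 CPM in neurons (log2 difference 6.67 ± 0.46 SE).

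**Figure D2:**
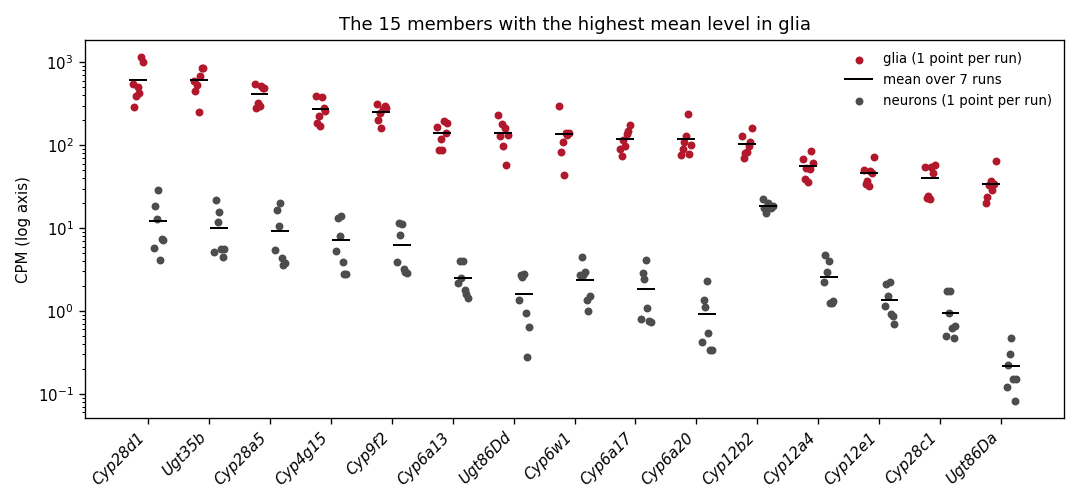
Levels in CPM (log axis) of the 15 members with the highest mean in glia, with glia (red) left of neurons (gray), 1 point per run and the mean over 7 runs as a line. The runs of glia lie above those of neurons for all 15 genes, and *Cyp12b2* has the smallest gap, 104.7 CPM in glia and 18.5 CPM in neurons on average.

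The low levels of these genes in neurons, relative to glia, were set beside those of glial markers. For the 26 members at 10 CPM or more in glia, the mean level in neurons was 0.62% to 118% of that in glia, with a median of 1.85%. For 27 markers of glia and glial types the same ratio was 0.45% to 68.6%, with a median of 2.26%. Like the members, the 9 general glial markers summed to more in neurons of runs 2 to 4, 403 to 652 CPM, than in neurons of the other runs, 215 to 279 CPM. The markers had served to assign the classes, and the 26 members were taken by their level in glia. Both medians therefore depend on that choice, and nothing about the source of these UMIs follows from their likeness. The part that free RNA has in these levels was not tested. In single cells thinned to 500 UMIs, *Cyp28d1* had a UMI in 23.3% ± 9.34 of glia and 0.85% ± 0.54 of neurons (SD, n = 7 runs each), against 59.0% and 8.29% without thinning. *Ugt35b* had a UMI in 23.9% ± 7.27 of thinned glia and 0.74% ± 0.39 of thinned neurons, against 51.0% and 6.96% without thinning. For *Ugt86Da* the thinned shares were 0.66% ± 0.29 of glia and 0.016% ± 0.0085 of neurons, against 5.56% and 0.16% without thinning.

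A minority of the members did not follow this pattern. *Cyp9c1* was lower in glia, with 0.69, 2.04 and 3.01 CPM, against 3.75, 4.54 and 6.90 CPM in neurons, and the ranges did not overlap (log2 difference -0.89 ± 0.23 SE, adjusted p = 0.0066, edgeR). Between groups of neurons it averaged 6.38 CPM in dopaminergic and 5.03 CPM in clock neurons, and 1.12 CPM in octopaminergic or tyraminergic, 1.37 CPM in serotonergic and 1.54 CPM in EB ring neurons. *Cyp4p3* had 3 UMIs in glia and 376 in neurons, 0.043 ± 0.077 CPM and 0.36 ± 0.14 CPM, and was called lower in glia (log2 difference -1.93 ± 0.66 SE, adjusted p = 0.025, edgeR), a call lost with DESeq2 (adjusted p = 0.105) and without run 2 (adjusted p = 0.108, edgeR); with equal UMIs per class it did not pass the filter. *Cyp301a1*, a mitochondrial P450 known from cuticle formation, had 12 UMIs in glia, averaged 0.29 CPM there and 0.92 CPM in neurons, was lower in glia in 6 of 7 runs, and was the last member called lower (log2 difference -1.40 ± 0.41 SE, adjusted p = 0.013, edgeR). Its call was lost at a mitochondrial limit of 20% (adjusted p = 0.058, edgeR), and with equal UMIs it did not pass the filter either.

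*Cyp6u1*, which overlaps *Ufsp1* on the same strand so that their reads cannot be fully told apart, differed little between the classes. It had 12.1, 14.8 and 17.4 CPM in glia and 15.7, 17.9 and 20.2 CPM in neurons, lower in glia in 7 of 7 runs. Its direction depended on the scaling: with TMM factors edgeR gave a log2 difference of 0.19 ± 0.07 (SE, adjusted p = 0.037), whereas an exact sign-flip permutation test on unscaled log2 CPM gave -0.22 (adjusted p = 0.021). DESeq2 did not call it (adjusted p = 0.153). Other P450s of similar level in both classes were *Cyp4d2*, with 3.80, 8.68 and 10.1 CPM in glia and 6.19, 8.59 and 10.4 CPM in neurons, and its neighbor *Cyp4ae1*, with 2.53, 3.94 and 5.68 CPM in glia and 4.66, 5.47 and 8.76 CPM in neurons. Neither was called (adjusted p = 0.17 and 0.76, edgeR). The remaining members not called were *Cyp49a1*, *Cyp4d14*, *Cyp6a14* and *Cyp6d5*, all under 1 CPM in glia.

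Of the 42 members called higher in glia, 6 did not rise in every run or had overlapping ranges. Besides *Cyp6u1* these were *Cyp6g2*, *Cyp6a21*, *Ugt86Dh*, *Cyp313a4* and *Cyp311a1*, with 18 to 58 UMIs in all glia. *Cyp313a4* had 18 UMIs in glia and 2 UMIs in 125070 neurons. *Cyp6g1*, the gene whose overexpression gives DDT resistance, averaged 5.78 ± 2.46 CPM in glia and 0.21 ± 0.19 CPM in neurons (log2 difference 5.23 ± 0.51 SE). *Cyp18a1*, an enzyme that inactivates ecdysteroids, had 8 UMIs in glia and 61 in neurons and was not tested, and *Cyp4d21*, known from male courtship, had 1 UMI in glia and 45 in neurons.

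Next, each named glial type was compared with the other named types in the same fit design. ALG, the glia that take up neurotransmitters in the neuropil, had 3 members called higher and 28 lower of 38 tested, against 23.2% higher and 23.9% lower of all genes tested. EG, which wrap the neuropil and engulf debris, had 20 members higher and 11 lower of 38, against 14.8% and 14.9% of all genes. Without the run as a block these counts were 11 and 5 in EG, and 18 were lower in ALG. PG, the outermost cells of the blood-brain barrier, had 19 higher and 13 lower of 40, against 23.8% and 24.9% of all genes. The median log2 difference of the members tested was -1.61 in ALG, 0.28 in EG and 0.45 in PG. That of all genes tested lay between -0.06 and 0.04. With no filter on low counts the medians of members were -1.14, 0.19 and -0.28 in these types, and with DESeq2 -0.19, 0.65 and 0.57. Those of all genes were 0.03, -0.09 and -0.19 with no filter, and 0.20, 0.07 and 0.09 with DESeq2. The medians of members therefore depended on the filter and the tool, in sign for PG. These comparisons share cells, since each type is part of the set the others are compared with, so that a member low in 1 type can be called higher in both of the others. Markers of neurons moved with the types as well: their list of 11 genes summed to 7778 to 10535 CPM in PG, 1924 to 7024 CPM in EG and 3232 to 10239 CPM in ALG, and the fat body markers to 39.2 to 85.5 CPM in PG, 232 to 489 CPM in EG and 69.5 to 141 CPM in ALG. Of the 10 fat body markers, 5 had no UMI in EG, 4 in ALG and 2 in PG. The part of neuron and fat body markers in the results was not tested.

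In ALG, *Cyp4g15* and *Cyp28a5* were the members called higher in each run. *Cyp4g15* had 261, 508 and 707.5 CPM in ALG and 81.5, 154 and 298 CPM in the other types (log2 difference 1.40 ± 0.12 SE, adjusted p = 2.01e-08, edgeR). By type it averaged 469 ± 166 CPM in ALG, 327 ± 106 CPM in EG and 16.4 ± 10.9 CPM in PG. *Cyp28a5* had 323.5, 694 and 779.8 CPM in ALG and 235.5, 372 and 479 CPM in the other types (log2 difference 0.67 ± 0.10 SE, adjusted p = 3.34e-05, edgeR). By type *Cyp28a5* averaged 579 ± 202 CPM in ALG, 485 ± 129.9 CPM in EG and 218 ± 44.3 CPM in PG, and EG was called higher as well (log2 difference 0.24 ± 0.08 SE, adjusted p = 0.044, edgeR), as it was for *Cyp4g15* (log2 difference 0.29 ± 0.10 SE, adjusted p = 0.032, edgeR). For both genes the ranges of ALG and of the other types overlapped although each run had ALG higher. *Cyp12a4* was called with a small difference, 50.9 CPM in ALG and 41.8 CPM in the other types (log2 difference 0.34 ± 0.12 SE, adjusted p = 0.027, edgeR), and was higher in 6 of 7 runs. *Cyp12a4* was more abundant in EG, at 66.1 CPM (log2 difference 0.86 ± 0.11 SE, adjusted p = 8.25e-06, edgeR, higher in 7 of 7 runs), and low in PG, at 15.1 CPM. *Ugt86Dd* averaged 179 ± 74.0 CPM in ALG, 128 ± 74.6 CPM in EG and 185 ± 88.7 CPM in PG, and was called lower in EG (log2 difference -0.45 ± 0.13 SE, adjusted p = 0.011, edgeR, lower in 7 of 7 runs).

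In EG, *Ugt35b* was the most abundant member of any named type. It had 839, 1221 and 1727 CPM in EG and 70.2, 156 and 249 CPM in the other types (log2 difference 3.12 ± 0.14 SE, adjusted p = 5.92e-12, edgeR). *Ugt35b* averaged 1296 ± 348 CPM in EG, 277 ± 150.5 CPM in ALG and 15.8 ± 11.4 CPM in PG, and was found in 94.2% of EG cells, against 8.22% of PG cells, which are deeper (medians of 4583.5 and 7889 UMIs). After thinning to 500 UMIs these shares were 46.6% ± 9.74 and 0.91% ± 0.54.

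By the size of the difference, *Cyp6t1*, *Ugt86Dg* and *Ugt86De* led in EG. *Cyp6t1* had 30.3, 48.2 and 61.3 CPM in EG and 0, 2.19 and 3.41 CPM in the other types (log2 difference 4.35 ± 0.25 SE, adjusted p = 1.60e-10, edgeR). *Ugt86Dg* had 2.71, 5.50 and 26.0 CPM in EG and 0, 0.34 and 1.65 CPM in the other types (log2 difference 4.31 ± 0.41 SE), and *Ugt86De* had 20.4, 53.2 and 68.2 CPM in EG and 0.79, 3.02 and 11.6 CPM in the other types (log2 difference 3.76 ± 0.24 SE). None of these ranges overlapped. The abundant P450 *Cyp6w1* had 120, 220.5 and 555 CPM in EG and 4.67, 14.9 and 38.6 CPM in the other types (log2 difference 3.74 ± 0.16 SE, adjusted p = 5.73e-12, edgeR). *Cyp28c1* averaged 74.0 CPM in EG and 9.37 CPM in the other types, *Cyp4s3* 53.0 and 2.41 CPM, and *Cyp6a2*, a P450 able to metabolize DDT, 30.1 and 3.15 CPM. *Cyp6a2* was higher still in the unnamed glial cluster led by *Obp44a*, 156 CPM. On the same strand, *Cyp6a2* overlaps *Epac* and *Cyp6t1* overlaps *lncRNA:CR45082*, so that their reads cannot be fully told apart.

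In PG, *Ugt86Da*, *Cyp12c1* and *Cyp6a20* had the largest differences among members higher in every run. *Ugt86Da* had 111, 146 and 235 CPM in PG and 0, 0.61 and 1.51 CPM in the other types (log2 difference 7.19 ± 0.21 SE, adjusted p = 4.61e-12, edgeR). PG held 1200 of its UMIs, against 20 in ALG and EG together, and in PG 52.9% of cells had a UMI, against 0.156% of EG cells. *Cyp6a20* had 317.6, 385 and 1070.3 CPM in PG and 20.2, 24.7 and 50.7 CPM in the other types (log2 difference 4.04 ± 0.13 SE, adjusted p = 1.27e-11, edgeR), the highest value being that of run 5. *Cyp12c1* had 18.3, 21.8 and 47.3 CPM in PG and 0, 0.21 and 3.05 CPM in the other types (log2 difference 6.02 ± 0.41 SE); in EG it had 0 UMIs, which allows up to 0.316 CPM. The ranges of all 3 genes were separate.

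Further members higher in PG than in the other types included *Cyp6a22* (23.6 and 2.70 CPM), *Cyp6g1* (22.7 and 1.40 CPM), *Cyp12a5* (36.1 and 4.18 CPM), *Ugt58Fa* (74.0 and 19.8 CPM) and *Cyp12b2* (177 and 77.6 CPM), each in 7 of 7 runs. *Cyp28d1* was not called in PG (adjusted p = 0.32, edgeR) and averaged 742 ± 578 CPM in PG, 704 ± 323 CPM in EG and 438 ± 182 CPM in ALG. It was called higher in EG (log2 difference 0.35 ± 0.10 SE, adjusted p = 0.011, edgeR, 7 of 7 runs) and lower in ALG (log2 difference -0.65 ± 0.14 SE, adjusted p = 7.85e-04, edgeR, 7 of 7 runs). *Cyp9f2* averaged 242 CPM in PG, 296 CPM in EG and 250 CPM in ALG.

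**Figure D3:**
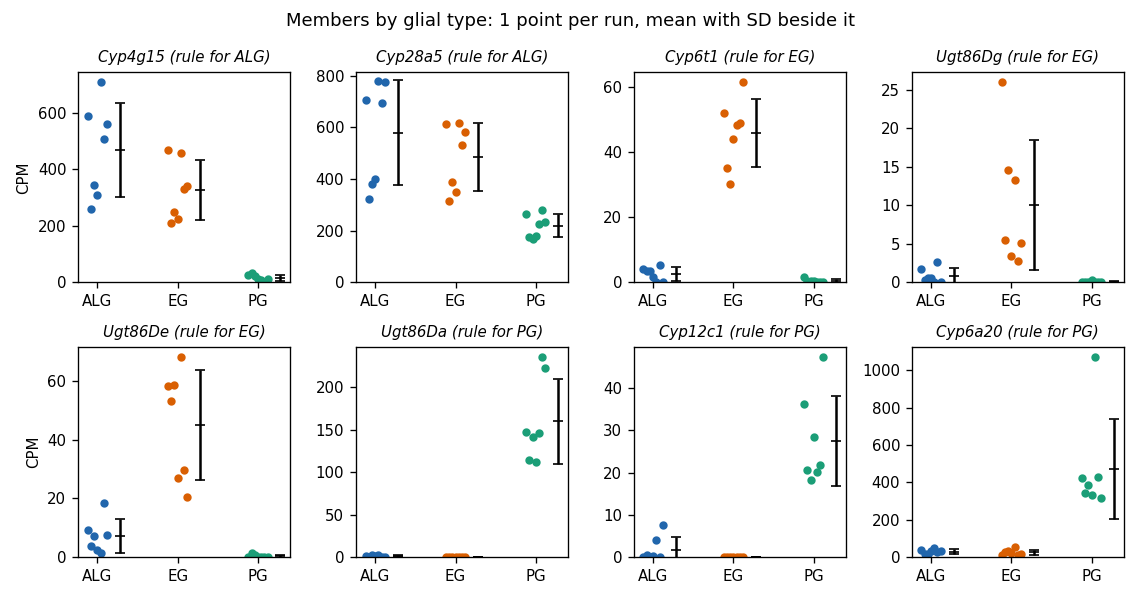
Levels in CPM (linear axes that start at 0) of the members named for ALG, EG or PG, with 1 point per run and the mean with its SD beside it. The points of *Cyp6t1*, *Ugt86Dg* and *Ugt86De* lie highest in EG and those of *Ugt86Da*, *Cyp12c1* and *Cyp6a20* in PG, while *Cyp4g15* and *Cyp28a5* overlap between ALG and EG.

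**Figure D4:**
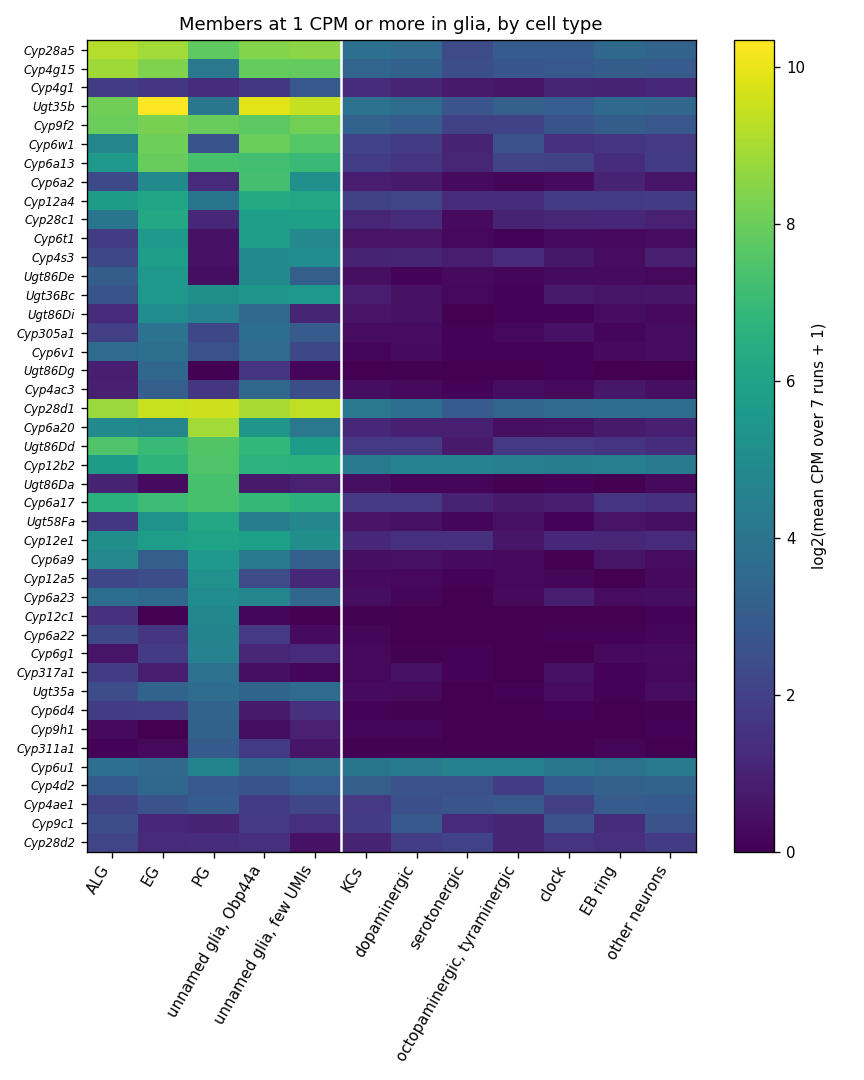
Mean level over 7 runs of the 43 members at 1 CPM or more in glia, as log2(CPM + 1) from dark (0) to yellow, with glial types left and neuron types right of the white line. The glial side is brighter for most genes, whereas *Cyp6u1* (15.0 CPM in glia and 17.6 CPM in neurons) stays similar across the line.

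*Cyp* and *Ugt* genes lie in tandem arrays on the chromosomes, and positions of the BDGP6 annotation were used to describe them. With neighbors joined where they lay at most 20000 bp apart, 60 of the 99 genes were in groups, 9 of which held 3 or more members. The *Cyp6a* array on chromosome 2R (14871366 to 14903095) held 9 genes, of which 7 were called higher in glia, against 42 of 53 tested members and 35.2% of all genes tested. In PG *Cyp6a20* averaged 472 CPM, *Cyp6a17* 159 CPM, *Cyp6a9* 45.5 CPM, *Cyp6a23* 30.6 CPM, *Cyp6a22* 23.6 CPM and *Cyp317a1* 13.7 CPM. Each of these was called higher in PG than in the other types, as were 19 of 40 tested members and 23.8% of all genes tested. *Cyp6a21* and *Cyp6a19*, which lie between or beside them, averaged 1.70 and 0.66 CPM in PG and were not tested between types.

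The UGT array on chromosome 3R (11151026 to 11177910) also held 9 genes, 7 of them called higher in glia, the same count, and its members differed in type. *Ugt35b*, *Ugt86De*, *Ugt86Di* and *Ugt86Dg* had their highest mean in EG (1296, 45.1, 31.8 and 10.1 CPM), while *Ugt86Da*, which lies between *Ugt86Di* and *Ugt86Dg*, and *Ugt35a*, which lies next to *Ugt35b*, had theirs in PG (160 and 12.1 CPM). *Ugt86Dd* lies outside this array at 11126597 to 11128328. Neighbors also differed elsewhere: *Cyp12a5* averaged 36.1 CPM in PG and 4.52 CPM in EG, and the adjacent *Cyp12a4* 15.1 CPM in PG and 66.1 CPM in EG. Of *Ugt36Ba*, *Ugt36Bb* and *Ugt36Bc*, the last alone was detected in named glia, at 44.5 CPM in EG. In the array of *Cyp4d1*, *Cyp4d14*, *Cyp4d2* and *Cyp4ae1* on the X chromosome none of the genes was called higher in glia.

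Enzymes that work with P450s and UGTs were compared from lists chosen with earlier results of these data known. Of the redox partners, 3 of 5 tested were higher in glia and 1 was lower, against 35.2% higher and 37.0% lower of all genes tested. *Cpr*, the reductase of microsomal P450s, had 61.0, 80.1 and 91.5 CPM in glia and 13.8, 17.6 and 22.5 CPM in neurons (log2 difference 2.53 ± 0.13 SE, adjusted p = 1.00e-06, edgeR), and averaged 113 CPM in PG, 75.6 CPM in EG and 47.5 CPM in ALG. *Cyt-b5*, which can pass electrons to P450s, averaged 212 CPM in glia and 101 CPM in neurons. The ferredoxin *Fdx2* averaged 57.1 CPM in glia and 35.7 CPM in neurons, while *Fdx1* was lower in glia, with 19.3 CPM and 38.4 CPM in neurons (log2 differences 1.10 and -0.53). The ferredoxin reductase *dare* averaged 10.0 CPM in glia and 14.7 CPM in neurons. Its CPM was lower in glia in every run, at most 11.1 CPM, against at least 12.6 CPM in neurons. With TMM factors its log2 difference was -0.09 ± 0.09 (SE), and it was not called (adjusted p = 0.68, edgeR).

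Of 6 regulators of detoxification genes, 2 were called higher and 2 lower in glia, shares near those of all genes tested (35.2% and 37.0%). The transcription factor *cnc* (the fly Nrf2) averaged 132 ± 12.0 CPM in glia and 72.9 ± 6.42 CPM in neurons, higher in 7 of 7 runs (log2 difference 1.29 ± 0.09 SE), and its inhibitor *Keap1* 6.70 ± 1.96 CPM in glia and 11.6 ± 1.53 CPM in neurons, lower in 7 of 7 runs (log2 difference -0.38 ± 0.14 SE). The partner *maf-S* was called higher (log2 difference 0.41) although its CPM was higher in glia in 2 of 7 runs alone, and *ss*, an aryl hydrocarbon receptor, was called lower at 0.073 CPM in glia and 0.52 CPM in neurons. The nuclear receptor *Hr96* and the cofactor *tgo* were not called (adjusted p = 0.46 and 0.82, edgeR), although the CPM of *tgo* was higher in glia in 0 of 7 runs. The ecdysone-producing Halloween P450s had few UMIs, at most 11 in glia and 48 in neurons per gene, and *shd* and *spok*, the 2 that could be tested, were called higher in glia at 0.24 and 0.30 CPM.

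Of 20 other detoxification genes tested, 16 were higher in glia and 2 lower, against 35.2% and 37.0% of all genes tested. The ABC exporters *Mdr49* and *Mdr65* were the steepest, averaging 216 and 94.1 CPM in glia and 1.03 and 0.49 CPM in neurons, and lay almost entirely in PG (1018 and 442 CPM, against at most 1.93 CPM in EG or ALG); *Mdr65* is also a marker of subperineurial glia, which were not separated from PG here. The glutathione transferases *GstD1* and *GstE12* averaged 968 and 642 CPM in glia and 52.5 and 19.6 CPM in neurons. The epoxide hydrolases *Jheh1* and *Jheh3* were highest in EG (110 and 159 CPM) and low in PG (11.7 and 6.26 CPM), whereas *Jheh2* was highest in PG (213 CPM, against 140 CPM in EG). The enzymes that make the sugar donors of UGTs were higher in glia too: *sgl*, which makes UDP-glucuronate, averaged 143 CPM in glia and 32.4 CPM in neurons, and reached 252 CPM in EG, the type with most *Ugt* UMIs, against 41.4 CPM in ALG and 22.7 CPM in PG. *UGP*, which makes UDP-glucose, averaged 58.6 CPM in glia and 21.1 CPM in neurons. *GstO2* (21.9 CPM in glia and 39.0 CPM in neurons) and the sulfotransferase *St3* (27.7 CPM in glia and 122 CPM in neurons) were the 2 genes lower in glia.

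Finally, run 5 (ZT20) was compared with runs 6 and 7 (ZT8) in a fit over all runs. No member was called at an adjusted p under 0.05 by edgeR in glia (45 tested), EG (32), ALG (28) or neurons (61), against 0.0251%, 0.379%, 0.0305% and 0.00922% of all genes tested in these classes, and DESeq2 called 0 as well. At an unadjusted p under 0.05 there were 6 members in glia (13.3% of those tested, 3.72% of all genes), 7 in EG (21.9% and 9.82%), 3 in ALG (10.7% and 3.97%) and 4 in neurons (6.56% and 4.26%). *Cyp6a20* had 241 CPM in glia at ZT20, against 79.1 and 101 CPM at ZT8 (log2 difference 1.48 ± 0.32 SE, adjusted p = 0.60, edgeR). In EG the lowest adjusted p was that of *Cyp6a2*, with 53.2 CPM at ZT20, against 5.43 and 10.2 CPM at ZT8 (log2 difference 3.00 ± 0.62 SE, adjusted p = 0.066, edgeR). *Ugt86Dd* had 163 CPM in EG at ZT20, against 51.6 and 56.2 CPM at ZT8 (log2 difference 1.73 ± 0.36 SE, adjusted p = 0.073, edgeR). *Cyp28d1* went the other way, with 427.5 CPM in glia at ZT20, against 1149 and 1011 CPM at ZT8 (log2 difference -1.28 ± 0.35 SE, adjusted p = 0.92, edgeR). Runs with mixed times spanned 76.2 to 130 CPM for *Cyp6a20* in glia, 24.1 to 61.6 CPM for *Cyp6a2* in EG, 76.3 to 257 CPM for *Ugt86Dd* in EG and 289.6 to 542 CPM for *Cyp28d1* in glia.

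When the 3 runs with a single time were fitted alone by edgeR, *Cyp6a20* was called higher at ZT20 in glia, against 0.361% of all genes tested in that fit, *Cyp6a2* and *Ugt86Dd* higher in EG, against 1.82%, and *Cyp28d1* lower in EG and in neurons, against 2.11% and 0.462%. Time and condition cannot be told apart in these runs: run 5 held S and SD flies, whereas runs 6 and 7 held W, SD and GBX-S flies, with gaboxadol in 2 lines of each, and 1 of the 6 lines differed between run 5 and runs 6 and 7. With 1 run at ZT20, differences also cannot be told apart from that run. The calls in the fit of the 3 runs draw their spread from runs 6 and 7 and hold none at ZT20.

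**Figure D5:**
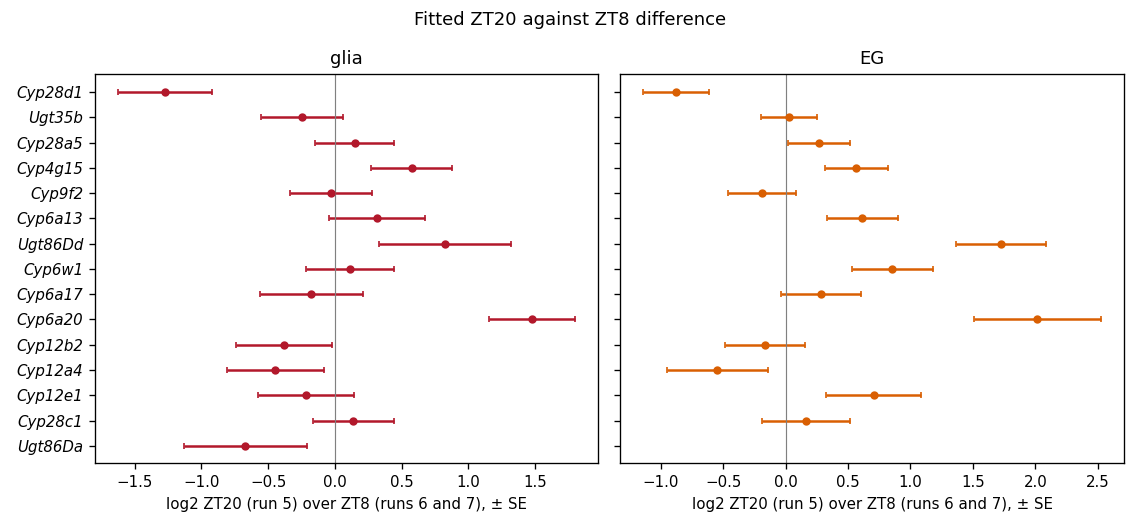
Fitted log2 difference of ZT20 (run 5) over ZT8 (runs 6 and 7) in glia (left) and EG (right) for the 15 members with the highest mean in glia, with bars of 1 SE; *Ugt86Da* could not be fitted in EG. *Cyp28d1* lies lowest in glia (-1.28) and *Cyp6a20* highest (1.48), and no gene passed the adjusted threshold.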

How the data were processed

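The deposited files hold UMI counts per gene and barcode, which the authors made with Cell Ranger 3.1.0 from 10x 3′ libraries aligned to BDGP6; Scanpy 1.4.4 is also named in the submitters' processing notes. Members and gene lists were chosen with earlier results of these data known. Barcodes under 200 detected genes or over 30% of UMIs from mitochondrial genes were dropped. Doublets were removed per run with scrublet in scanpy 1.11.5 (0.521% to 17.5% of cells). For runs 1, 6 and 7 the threshold of run 5 (0.418) was used, a choice made after the counts were seen, because the automatic threshold marked 0 cells in runs 6 and 7 and 24.2% of cells in run 1, above the expected 17.7%. Cells were clustered by the Louvain method (igraph 0.11.9, 58 principal components, 15 neighbors, resolution 8), with 24 members left out of the variable genes. Classes were assigned by marker rules set after cluster profiles had been seen. A marker passed at 2-fold or more over all other cells and in at least 10% of cells of the cluster. Glia passed at least 5 glial markers, with a mean log2 level of glial minus neuronal markers of at least -1.5. A named glial type passed at least 3 of its own markers, with their mean log2 level at least 0.5 above the median of glial clusters. Its 10 leading genes held no marker of hemocytes, fat body, photoreceptors, muscle, trachea or epithelium.

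UMIs were summed per run and class and tested with edgeR 4.0.16 (R 4.3.3, limma 3.58.1; TMM, filterByExpr, quasi-likelihood test, Benjamini-Hochberg over all genes tested). The run was a block in comparisons between classes, because both sums of a run come from the same library. ZT20 was compared with ZT8 in a fit over all runs that gave each mixture of times its own term. Alternatives were DESeq2 1.42.0, no filter, no block, each run left out, other cell filters, doublets kept, resolution 4, named glial types alone, equal UMIs per class, an exact sign-flip permutation test with a pseudocount of 1 CPM and, chosen after seeing the data, glia with the cluster led by *CG18067*. Scripts were tested on simulated data. Ranges over runs are given without counting intervals, and limits for genes with no UMI cover counting error only.

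Members named were the 15 most abundant in glia, the 10 with the largest difference higher and up to 5 lower in glia among those called and moving the same way in every run, 2 genes the study names, the 3 with the largest difference in each glial type among those higher in every run, and any called between times, of which there were 0. Other members were named after their values were seen. Positions are those of Ensembl release 115 on BDGP6.54, where 82 members matched by symbol and 17 by an older symbol. There, 8 members overlap another entry on the same strand, among them *Cyp6u1*, *Cyp6a2*, *Cyp6t1*, *Cyp4g1*, *Cyp12a4* and *Cyp6a22*. The split of reads is uncertain for these. Sequences were not used here.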

Additional observations from a re-analysis of the deposited data

Results flagged for a closer look

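Among 105 groups of 7 runs examined for a run far from the others, 15 held one. The same gene enters in several classes, and ALG, EG and PG are parts of glia. The groups are therefore not independent, and the count cannot be set against a rate expected by chance. Run 3 stood apart for *Cyp4g1*, the oenocyte hydrocarbon enzyme, in each class examined: 15.0 CPM in glia (at most 0.0966 CPM in other runs), 7.82 CPM in neurons, 17.9 CPM in ALG, 14.5 CPM in EG and 10.6 CPM in PG. *Cyp6a20* was highest in run 5, with 241 CPM in glia (next 129.7 CPM) and 1070.3 CPM in PG (next 431 CPM). *Cyp6w1* was highest in run 1, with 299 CPM in glia (next 142 CPM) and 53.3 CPM in ALG (next 24.3 CPM). *Ugt58Fa* was highest in run 7, with 53.1 CPM in glia and 86.9 CPM in EG, as was *Ugt86Da* in glia (63.7 CPM, next 37.1 CPM) and *Cyp9c1* in ALG (22.8 CPM, next 4.43 CPM). *Cyp6a9* in ALG was highest in run 6 (61.2 CPM, next 34.7 CPM), and *Cyp6t1* in PG in run 1 (1.73 CPM, next 0.470 CPM). The values of *Cyp9c1* in ALG and *Cyp6t1* in PG rest on few UMIs. *Cyp9c1* had 36 UMIs in ALG over all runs, and run 7 held 86 ALG cells. *Cyp6t1* had 41 UMIs in ALG and PG together, 37 of them in ALG.

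Cells left out of the comparisons held members at 10 CPM or more and at least 5-fold above each class used. In the glial cluster led by *CG18067*, which also expressed muscle genes, *Cyp313a1* reached 186 CPM, *Cyp6g1* 165 CPM, *Cyp9h1* 98.2 CPM, *Cyp6d5* 48.7 CPM, *Cyp4d21* 42.8 CPM, *Cyp4p1* 19.6 CPM and *Cyp312a1* 10.6 CPM. In hemocytes, the blood cells of the fly, *Cyp6d5* reached 140.2 CPM, *Cyp4d8* 69.6 CPM, *Cyp4e2* 41.1 CPM, *Cyp311a1* 39.0 CPM, *Cyp49a1* 19.0 CPM, *Cyp4ac1* 14.8 CPM and *Cyp6a8* 13.7 CPM. These are levels over 358 and 113 cells, and no test was made. The muscle markers of the cluster led by *CG18067* varied between runs, from 49.7 to 19222 CPM with a median of 272 CPM.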

How the results depend on the processing

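The 42 members called higher in glia numbered 38 to 57 under the alternatives (57 with the cluster led by *CG18067*) and 40 to 43 with 1 run left out. The 3 called lower numbered 1 with equal UMIs, where the other 2 did not pass the filter, 5 in the sign-flip test and 2 to 3 with 1 run left out. Without the replicate block, 18 members were called lower in ALG (28 with it), 11 higher in EG (20 with it) and 5 lower in EG (11 with it). With 1 run left out, 2 to 4 were higher and 24 to 30 lower in ALG, 14 to 18 higher and 10 to 11 lower in EG, and 17 to 22 higher and 12 to 13 lower in PG. At ZT20 against ZT8, no filter on low counts gave 1 member higher in glia and 3 in EG, and the runs with a single time alone gave 1 higher in glia, 2 higher and 1 lower in EG, and 1 lower in neurons. The causes of these changes were not tested. Of 32 gene results, 30 kept their direction and call under every alternative in which they were tested. Members among them were chosen partly by a large difference and by moving the same way in every run. Their stability follows in part from that choice. *Cyp301a1*, whose lower call was lost at a mitochondrial limit of 20%, was not among the 32. *Cyp4p3* did not pass the filter with equal UMIs or without the replicate block. *Cyp4p3* lost its call with DESeq2, without run 2 and at resolution 4 (adjusted p = 0.105, 0.108 by edgeR and 0.0542 by edgeR), and *Cyp6u1* lost it in 9 settings and had a log2 difference of -0.22 in the sign-flip test. All 30 shares of cells moved when cells were not thinned.

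With 599 to 2464 glia per run, genes of a few UMIs could not be tested. Time rests on 1 run at ZT20, and mixed clusters were not compared. The unnamed glial clusters (933 and 3138 cells) were part of the 10033 glia but not of the comparisons between glial types.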
